A study of Mus musculus with 4 samples.

Results

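This report describes how the transcriptome of bone marrow macrophages from mice labelled Sema6D-/- changed after exposure to lipopolysaccharide (LPS), the outer-membrane glycolipid of Gram-negative bacteria. Messenger RNA was sequenced from bone marrow cells of C57BL/6 mice, aged 7 weeks, that had been grown into macrophages with macrophage colony-stimulating factor. The series holds 4 libraries: wild type and Sema6D-/-, each with LPS at 100 ng/ml for 4 h and each labelled "non", read here as not stimulated. The protocol notes of all 4 samples mention LPS, and they name Trizol for RNA extraction where the series design names an RNeasy kit. Nothing states whether cells of several mice were pooled or how the Sema6D deletion was made. The members are the protein-coding genes that reached 1 FPKM in either of the Sema6D-/- libraries. FPKM is the number of sequenced fragments scaled by transcript length and by a library size. This rule kept 10085 of 20515 protein-coding genes, out of 24235 genes of all kinds in the tables, and the 10430 below it were not described. At the edge of the rule, 98 genes had a maximum of 1.0 to 1.1 FPKM and were kept, and 105 had 0.9 to 1.0 FPKM and were not.

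LPS is sensed by Toll-like receptor 4 with its partners CD14 and MD-2, which signal through the adaptors MyD88 and TRIF. The MyD88 branch activates NF-kB and AP-1, which drive cytokine and chemokine genes, and the TRIF branch activates IRF3 and so interferon beta. Secreted interferon acts back on the macrophage through its receptor and JAK-STAT signalling and switches on antiviral genes, while inhibitors such as A20 and the SOCS proteins damp the response.

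Sema6d, the gene named in the genotype, was low in all 4 libraries and ran against the labels. It stood at 0.563 FPKM without and 0.592 FPKM with LPS in the libraries labelled Sema6D-/-, and at 0.304 and 0.219 FPKM in the wild-type libraries. A summed gene value does not show which exons the fragments came from, so Sema6d does not check the genotype, and "Sema6D-/-" below means the libraries so labelled. Estimated depth was 17.4 M (1e6) fragments without and 21.5 M with LPS in the Sema6D-/- pair. The library size implied by the steps between low FPKM values was 22.4 M without and 16.6 M with LPS. The deposited values were thus not scaled by the estimated number of fragments. The labelled cell type was borne out by its markers: all 14 macrophage markers were measured, with Lyz2 at 17997 to 19821 FPKM, Csf1r at 1048 to 951 FPKM and Adgre1, the gene of F4/80, at 715 to 918 FPKM. Of the lists for other cells, 1 of 5 B cell markers, 1 of 8 T and NK cell markers, 3 of 8 dendritic cell markers and no mast cell or erythroid marker reached 1 FPKM in either library. Neutrophil markers were the exception, with 9 of 10 measured and a summed level of 266 FPKM without and 400 FPKM with LPS. The largest of them were S100a8 at 103 to 166 FPKM and S100a9 at 79.3 to 113 FPKM, and their part in the results was not tested. The neutrophil marker not measured was Ly6g, at 0.310 FPKM without and 0.418 FPKM with LPS. Among stromal and endothelial markers, of which 2 of 7 were measured, Kdr, a receptor for vascular endothelial growth factor, rose from 10.6 to 46.4 FPKM. Of 5 megakaryocyte markers 2 were measured.

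Each side is 1 library, so nothing below was checked against replicates and no p-value is given. A response is the log2 ratio of FPKM + 1 with LPS over FPKM + 1 without, which understates the change of genes below a few FPKM. "Rose" and "fell" are used for genes past a size rule of 2-fold on that scale, not for the outcome of a test. By this rule 1388 genes rose, 13.8% of those measured, and 850 fell, 8.43%, while 7847 moved by less. Increases were larger than decreases: 506 genes rose and 128 fell by 4-fold or more, 169 and 20 by 8-fold or more, 68 and 3 by 16-fold or more, and 30 and 0 by 32-fold or more. The median response over all measured genes was 0.01, and 0.15 among the 6336 genes at 5 FPKM or more in both libraries. The split depended on scale. The deposited FPKM summed to 370648 over all genes without LPS and 625812 with it, and giving both libraries the same total left 705 genes higher and 2965 lower, a share of 19.2% higher against 62.0% as deposited. Centring on the median gave 1186 higher and 1161 lower, or 50.5% higher. Across the 58 gene lists described below, the medians shifted by -0.71 in the median list on rescaling and by -0.15 on centring, and 30 list medians changed sign on rescaling and 6 on centring. Each list therefore carries in brackets how many of its genes passed the rule upward and downward on the rescaled values. The 1 FPKM filter was applied again to those values, so the bracketed counts can rest on another number of genes. Zinc finger genes numbered 242 there and 224 as deposited, nuclear receptors and clock genes 26 and 25, and CC chemokines 11 and 12. The bracketed counts stand beside 705 genes higher and 2965 lower over all genes, and not beside the 13.8% and 8.43% given above. Only 19.2% of all genes past 2-fold on the rescaled values were higher. A list with more genes lower than higher in brackets is therefore not set apart from all genes by that alone.

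**Figure D1:**
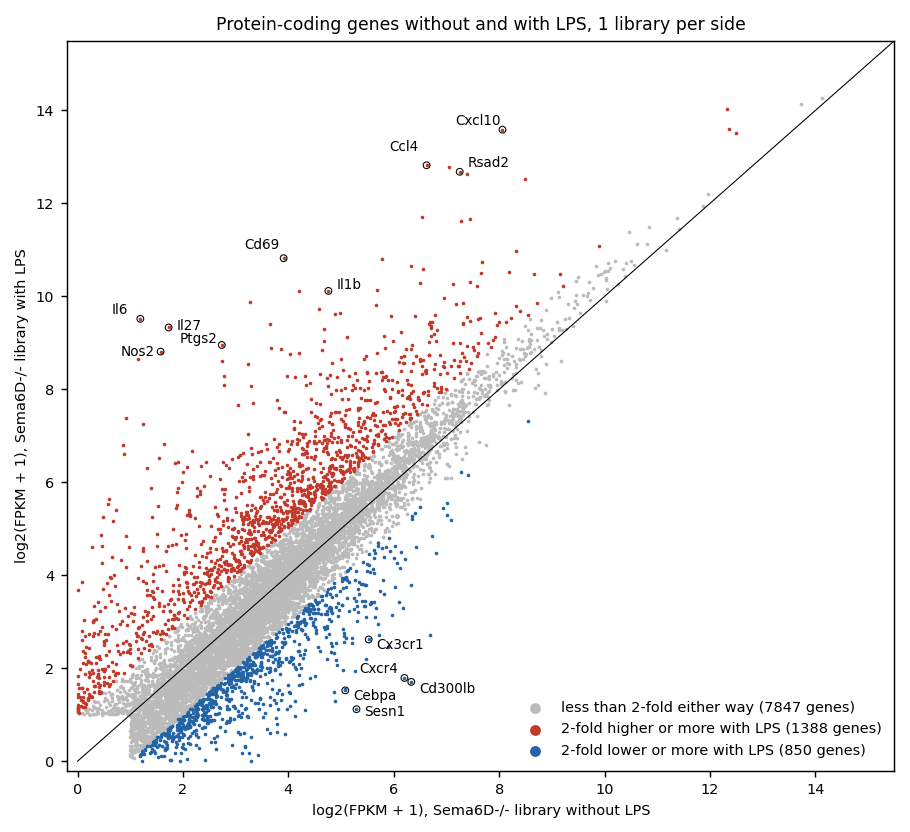
Level of each of the 10085 measured protein-coding genes, as log2(FPKM + 1), in the Sema6D-/- library without LPS (horizontal) and with LPS (vertical); the line marks equal values. The 1388 genes in red lie at least 2-fold above it and reach farther from it than the 850 in blue that lie at least 2-fold below.

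The genes that rose came from every level of expression. Without LPS their median level was 12.5 FPKM, close to the 10.3 FPKM of all measured genes, and with LPS it was 48.5 FPKM. Genes that fell went from a median of 8.29 to 2.35 FPKM. Together the 1388 genes that rose made 16.1% of the protein-coding FPKM without LPS and 44.2% with it. Chemokines alone went from 0.352% to 6.01%. Behind the genes that rose stood a median of 839 estimated fragments in the library without LPS, and behind those that fell a median of 101 in the library with LPS. Fewer than 10 fragments stood behind 62 and 46 of them, respectively.

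The most abundant mRNAs changed in part, with chemokine and interferon-response mRNAs entering the top 15. Lyz2, encoding lysozyme, and Fth1, the ferritin heavy chain, were the 2 highest in both libraries, Fth1 at 13613 to 18102 FPKM. Saa3, an acute-phase serum amyloid gene, went from 5143 to 16736 FPKM, B2m, the light chain of MHC class I, from 5742 to 11695 FPKM, and Actb, a cytoskeletal actin, from 5243 to 12354 FPKM. Each of the 3 was past 2-fold on the deposited scale and none on the rescaled values. Of the 15 highest genes with LPS, 7 had stood below 400 FPKM without it: Cxcl10, Ccl4, Ccl3, Rsad2, Ccl5, Acod1 and Cmpk2. Cathepsin and saposin genes changed little, with Psap at 3743 to 3938 FPKM and Ctsd at 2725 to 2811 FPKM.

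Promoter letters are shown here for 6 genes that rose steeply and 1 that fell, because inducible genes of this response are classically divided by the NF-kB and interferon elements near their start. The sequences are the 250 bases upstream of the first listed start in the RefSeq promoter table of the GRCm38.p6 build, read 5′ to 3′ on the gene's strand, and are not from the mm9 build of the deposited values. Il6 lies at chr5:30012864-30013113 on the plus strand, Cxcl10 at chr5:92348890-92349139 on the minus strand, and Cxcl1 at chr5:90890995-90891244 on the plus strand. Gbp5 lies at chr3:142496684-142496933, plus, Ifit1 at chr19:34640639-34640888, plus, Rsad2 at chr12:26456453-26456702, minus, and Cxcr4 at chr1:128592300-128592549, minus. Capitals mark every match to the kappa-B consensus of NF-kB, to the core of the interferon-stimulated response element, to AP-1 (TGANTCA) and to the cyclic AMP element (TGACGTCA), each on either strand, and to TATAAA on the sense strand. Matches that overlap run together.
Il6: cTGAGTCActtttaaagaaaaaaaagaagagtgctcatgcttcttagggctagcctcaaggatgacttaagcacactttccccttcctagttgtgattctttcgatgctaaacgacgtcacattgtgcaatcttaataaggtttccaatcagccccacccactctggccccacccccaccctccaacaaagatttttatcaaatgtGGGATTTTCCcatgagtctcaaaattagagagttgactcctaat
Cxcl10: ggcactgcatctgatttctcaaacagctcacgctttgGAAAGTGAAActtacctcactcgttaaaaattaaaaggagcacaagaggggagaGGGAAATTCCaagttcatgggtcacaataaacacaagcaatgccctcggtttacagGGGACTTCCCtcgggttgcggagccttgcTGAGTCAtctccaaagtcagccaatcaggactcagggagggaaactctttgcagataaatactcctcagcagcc
Cxcl1: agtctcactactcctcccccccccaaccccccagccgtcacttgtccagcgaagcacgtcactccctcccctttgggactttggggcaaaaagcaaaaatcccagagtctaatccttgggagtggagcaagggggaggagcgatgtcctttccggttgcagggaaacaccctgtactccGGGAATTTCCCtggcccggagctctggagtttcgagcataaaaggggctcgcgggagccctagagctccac
Gbp5: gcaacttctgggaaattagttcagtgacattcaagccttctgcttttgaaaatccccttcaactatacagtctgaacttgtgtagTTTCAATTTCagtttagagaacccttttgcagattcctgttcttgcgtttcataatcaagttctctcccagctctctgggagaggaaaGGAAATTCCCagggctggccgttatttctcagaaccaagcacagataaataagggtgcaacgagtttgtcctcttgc
Ifit1: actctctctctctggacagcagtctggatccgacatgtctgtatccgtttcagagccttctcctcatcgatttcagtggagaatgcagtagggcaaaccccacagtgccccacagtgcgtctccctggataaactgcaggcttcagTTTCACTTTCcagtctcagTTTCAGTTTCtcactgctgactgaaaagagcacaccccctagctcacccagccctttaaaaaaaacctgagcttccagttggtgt
Rsad2: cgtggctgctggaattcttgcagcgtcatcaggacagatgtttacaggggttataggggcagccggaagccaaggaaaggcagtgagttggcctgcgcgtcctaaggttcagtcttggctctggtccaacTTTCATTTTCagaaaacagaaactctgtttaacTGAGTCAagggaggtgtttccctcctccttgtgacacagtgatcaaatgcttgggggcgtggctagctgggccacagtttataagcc
Cxcr4: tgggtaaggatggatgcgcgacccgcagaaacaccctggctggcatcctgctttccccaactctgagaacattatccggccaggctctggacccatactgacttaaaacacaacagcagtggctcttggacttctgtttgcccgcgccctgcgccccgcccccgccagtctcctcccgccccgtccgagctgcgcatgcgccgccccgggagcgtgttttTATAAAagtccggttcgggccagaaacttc
The Il6 window held a kappa-B match, GGGATTTTCC, from -44 to -35 relative to the start, and an AP-1 match near its far end. Cxcl10 held 2 kappa-B matches, 1 interferon element and 1 AP-1 match, and in Cxcl1 the letters GGGAATTTCCC gave 2 overlapping kappa-B matches. Ifit1 held 2 interferon elements between -104 and -76 and no kappa-B match, Gbp5 held 1 of each, and Rsad2 1 interferon element with an AP-1 match. The Cxcr4 window held only TATAAA.

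Over all genes, promoters were matched for 8247 of the 10085 measured genes. The interferon element was found in 11.8% of the 407 matched promoters of genes that rose 4-fold or more, 8.36% of the 1112 that rose 2-fold or more, 2.25% of the 6440 between and 1.29% of the 695 that fell. For the kappa-B consensus the same shares were 9.83%, 7.19%, 3.96% and 4.60%, and for AP-1 they were 10.1%, 6.74%, 3.90% and 3.74%. In the 107 matched promoters of genes that fell 4-fold or more the shares were 0.935% for the interferon element, 0% for kappa-B and 9.35% for AP-1, the last close to that of genes that rose 4-fold or more. Over the whole table of 27025 genes the shares were 3.04% for the interferon element, 3.75% for kappa-B and 6.87% for AP-1. For the cyclic AMP element the shares in the first 4 groups were 1.72%, 2.79%, 2.93% and 2.16%. TATAAA was found in 9.34% of the promoters of genes that rose 4-fold or more and 3.20% of those between. It was found in 2.59% of those that fell and 5.61% of those that fell 4-fold or more. The share was 3.63% over all measured genes and 8.12% over the whole table. The median GC content was 57.6% for genes that rose 4-fold or more and 60% for those between. Among the antiviral list, 14 of 47 matched promoters held the interferon element, and among the PYHIN genes 7 of 10. Among feedback inhibitors 6 of 19 held a kappa-B match, and among CXC chemokines 4 of 9. The shares describe letters in 1 window per gene and say nothing of binding.

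**Figure D2:**
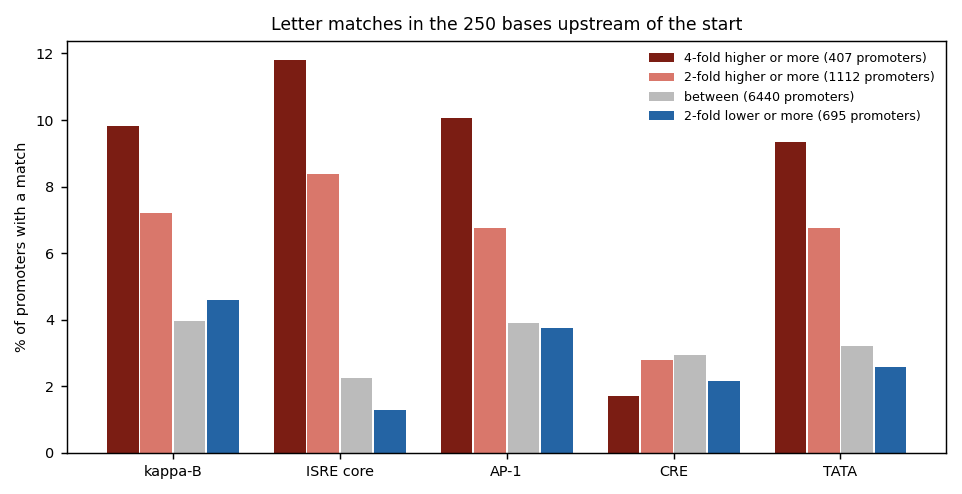
Share of matched promoters that hold each set of letters in the 250 bases upstream of the start, for genes grouped by their response in the Sema6D-/- pair (the 407 genes of the 4-fold group are also among the 1112 of the 2-fold group). The interferon element falls from 11.8% in the 4-fold group to 1.29% in the group that fell.

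The sensing machinery rose in part. Among Toll-like receptors and co-receptors 7 of 17 rose and 0 fell (1 and 2 after rescaling), with a median of 0.72, or -0.04 on the rescaled values. Tlr3, the receptor for double-stranded RNA, rose from 7.79 to 98.2 FPKM, and Tlr2, the receptor for bacterial lipopeptides, from 148 to 363 FPKM. Cd14, which hands LPS to the receptor complex, rose from 565 to 1421 FPKM, while Tlr4 itself stood at 13.6 to 17.8 FPKM and Ly96, the gene of MD-2, at 34.6 to 56.7 FPKM. Among adaptors, kinases and NF-kB subunits 13 of 25 rose and 1 fell (8 and 3 after rescaling). Rel went from 13.1 to 101 FPKM, Nfkb1 from 71.1 to 378 FPKM and Nfkb2 from 39.9 to 192 FPKM, all NF-kB subunits. Myd88 rose from 81.8 to 377 FPKM and Irak2, a kinase downstream of it, from 32.6 to 146 FPKM, whereas Ticam1, the gene of TRIF, stood at 14.3 to 14.8 FPKM. Tab1, a partner of the kinase TAK1, was the member that fell, from 7.53 to 2.29 FPKM.

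Among inhibitors of the pathway 16 of 21 rose and 0 fell (13 and 0 after rescaling), with a median of 2.16. Socs1, a suppressor of JAK-STAT signalling, rose from 5.71 to 389 FPKM, and Socs3, which acts on the IL-6 receptor, from 17.4 to 439 FPKM. Tnfaip3, the gene of A20, rose from 15.3 to 433 FPKM, and Nfkbia, the gene of the NF-kB inhibitor I-kappa-B alpha, from 158 to 923 FPKM. Tollip and Sharpin were little changed, at 25.3 to 28.7 FPKM and 26.5 to 28.02 FPKM. The MAP kinase phosphatases parted: Dusp2 rose from 2.71 to 54.3 FPKM and Dusp16 from 8.01 to 65.2 FPKM, while Dusp7 fell from 18.6 to 7.39 FPKM and Dusp3 from 41.7 to 18.4 FPKM. In that list 4 of 16 rose and 2 fell (3 and 5 after rescaling). Among regulators of inflammatory mRNA decay 5 of 21 rose and 2 fell (5 and 5 after rescaling). Zfp36, the gene of tristetraprolin, rose from 103 to 639.7 FPKM, its relative Zfp36l2 fell from 102 to 5.56 FPKM and Zfp36l1 fell from 27.05 to 8.47 FPKM. Zc3h12a, the gene of the RNase Regnase-1, rose from 18.4 to 74.98 FPKM, and Arid5a, which protects Il6 mRNA, from 2.63 to 42.4 FPKM.

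Transcription factors moved in both directions. Among immediate early and AP-1 genes 9 of 25 rose and 1 fell (7 and 5 after rescaling): Batf2 rose from 14.7 to 312 FPKM, Maff from 2.22 to 22.02 FPKM, Junb from 110.3 to 528 FPKM and Egr1 from 5.33 to 31.1 FPKM, while Fos stood at 73.2 to 52.5 FPKM and Myc fell from 7.84 to 2.63 FPKM. Among Kruppel-like factors 5 of 11 rose and 2 fell (4 and 5 after rescaling); Klf6 rose from 84.6 to 422 FPKM and Klf8 from 0.880 to 17.1 FPKM, and Klf10 fell from 25.6 to 8.03 FPKM. Among interferon regulatory factors and STATs 10 of 14 rose and 0 fell (7 and 2 after rescaling). Irf1 went from 55.9 to 470.0 FPKM and Irf7, the amplifier of type I interferon genes, from 404 to 1427 FPKM. Irf3, which starts the interferon beta response and is regulated after translation, was at 18.4 to 12.4 FPKM.

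Among transcription factors tied to the macrophage lineage 14 of 33 rose and 6 fell (9 and 10 after rescaling). Cebpa, a factor of myeloid differentiation, fell from 32.8 to 1.88 FPKM, a log2 ratio of -3.56, while its relatives Cebpd rose from 27.5 to 151 FPKM and Cebpb stood at 145 to 229.7 FPKM. Tfeb, a regulator of lysosome and autophagy genes, fell from 18.9 to 1.13 FPKM, whereas Mitf and Tfec of the same family rose from 31.3 to 90.2 FPKM and from 9.99 to 69.7 FPKM. Spi1, the gene of the lineage factor PU.1, stood at 422 to 534 FPKM. The 25 nuclear receptors and clock genes had the lowest median of the 58 lists, -0.62: 1 of 25 rose and 8 fell (1 and 14 after rescaling). Rxra, the shared partner of many nuclear receptors, fell from 20.2 to 2.47 FPKM, Nr1h3, the gene of the oxysterol receptor LXR alpha, from 33.6 to 15.98 FPKM, and the clock gene Per1 from 6.73 to 1.28 FPKM. Nr3c1, the glucocorticoid receptor, was the 1 member that rose, from 19.4 to 92.6 FPKM. Nr4a3, an orphan nuclear receptor given below, rose too but is not in this list. Among genes with 1 transcript the median of this list was -0.26, and that of the zinc finger genes given below was lower, at -0.44.

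**Figure D3:**
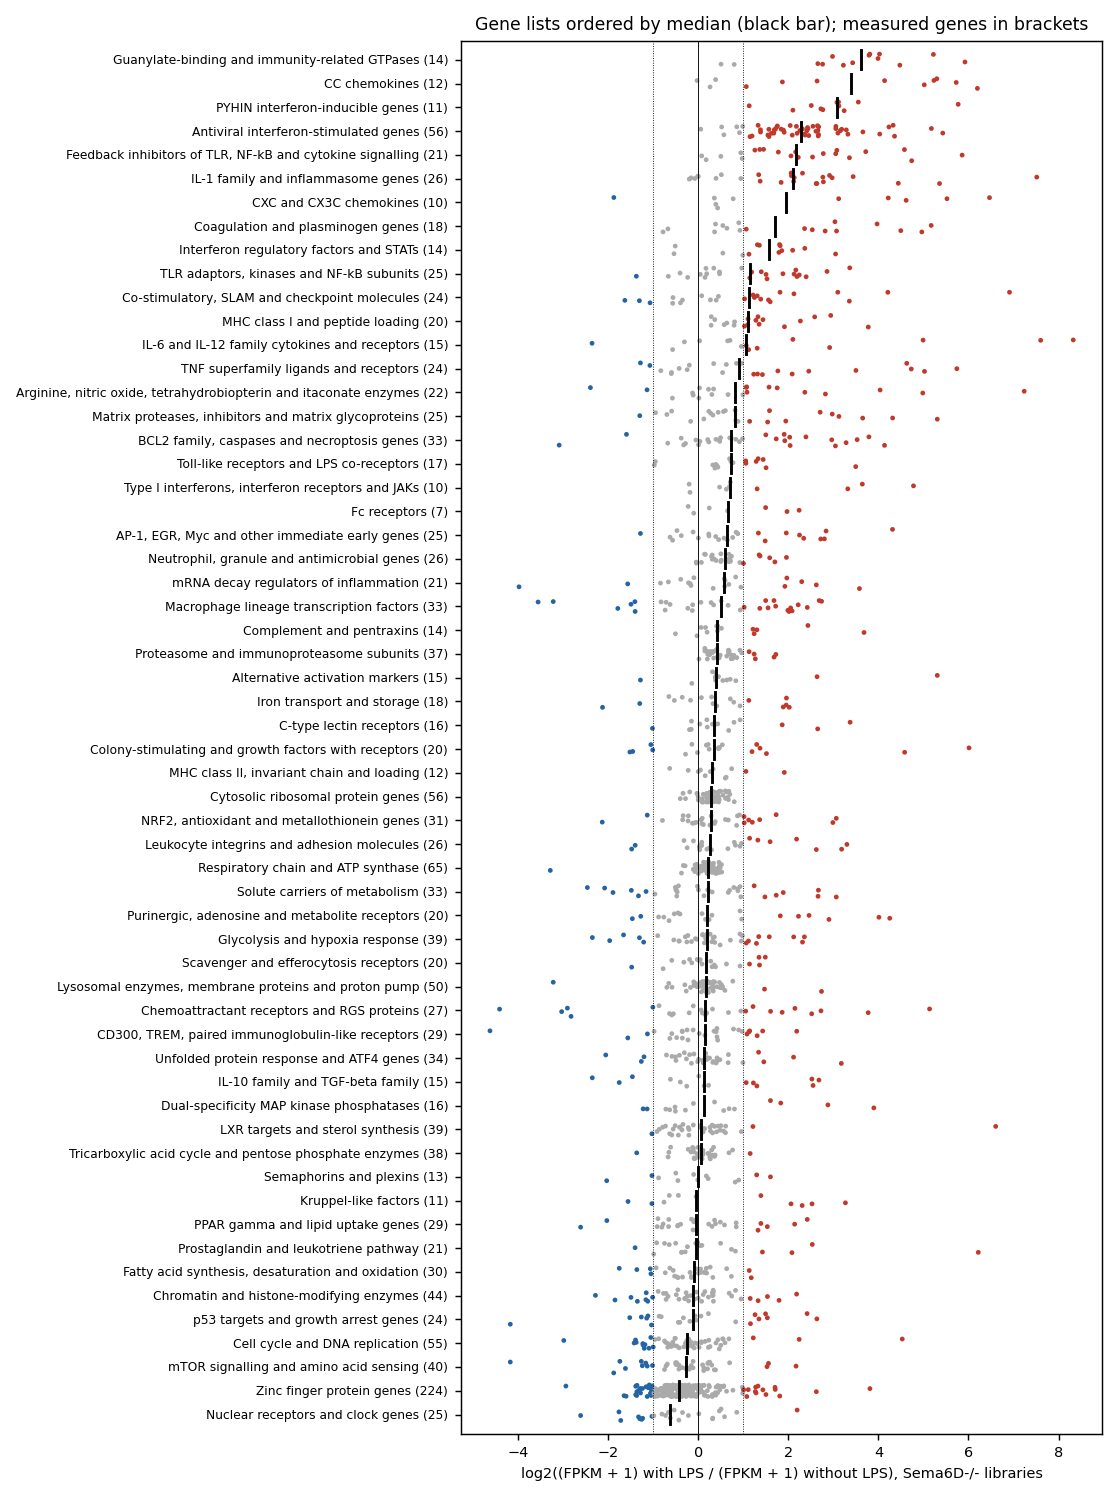
Response of each measured gene (points) in the 58 lists, ordered by median (black bar), as the log2 ratio of FPKM + 1 with LPS over without in the Sema6D-/- libraries; dotted lines mark 2-fold. Guanylate-binding proteins, CC chemokines and PYHIN genes lie highest, with medians of 3.61, 3.39 and 3.08, and nuclear receptors and clock genes lowest at -0.62.

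The 3 largest responses were those of the cytokine genes Il6, Il27 and Il1a. Il6, which drives fever and the acute-phase response, rose from 1.28 to 732 FPKM, a log2 ratio of 8.33, on 27 estimated fragments without LPS. Il27, a subunit of the IL-27 cytokine that restrains T cells, rose from 2.31 to 643 FPKM. Its log2 ratio was 7.60, and without the pseudocount it was 8.12 with a counting interval of 7.67 to 8.57. That interval, like those below, is a 95% exact binomial interval of the fragments and covers counting error only. Il12b, the shared chain of IL-12 and IL-23, rose from 1.49 to 78.3 FPKM, and Il12a, the other chain of IL-12, from 0.0832 to 7.18 FPKM, the lower value resting on 2 fragments. Il6ra, which encodes the receptor chain that binds IL-6, fell from 32.2 to 5.48 FPKM. In the IL-6 and IL-12 family list 8 of 15 rose and 1 fell (5 and 2 after rescaling). In the IL-1 family Il1a rose from 1.21 to 403 FPKM, Il1b from 26.1 to 1110.3 FPKM and Il1rn, the antagonist of both, from 50.7 to 1122 FPKM. In the IL-1 and inflammasome list 18 of 26 rose and 0 fell (17 and 0 after rescaling). Sensors rose with the cytokines, Nlrp3 from 36.2 to 254 FPKM, Aim2 from 16.9 to 121 FPKM and Nlrc4 from 8.33 to 39.8 FPKM, as did Casp1 from 48.9 to 208 FPKM, while Pycard, the adaptor that joins them to caspase-1, was at 22.8 to 20.3 FPKM.

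Tnf rose from 54.2 to 1794 FPKM. In its superfamily 11 of 24 rose and 2 fell (9 and 5 after rescaling). Tnfsf15, a ligand that stimulates T cells, rose from 0.832 to 97.01 FPKM, Cd40, which receives help from T cells, from 28.7 to 788 FPKM, and Tnfsf10, the gene of the death ligand TRAIL, from 7.25 to 203 FPKM. Il10, the main anti-inflammatory cytokine of macrophages, rose from 5.26 to 39.1 FPKM and its receptor chain Il10ra from 65.8 to 164 FPKM. The transforming growth factor beta receptor Tgfbr1 and its signal transducer Smad3 both fell, from 49.5 to 8.88 FPKM and from 3.87 to 0.443 FPKM. In the IL-10 and TGF-beta list 6 of 15 rose and 3 fell (3 and 6 after rescaling). Among growth factors and their receptors 6 of 20 rose and 4 fell (4 and 4 after rescaling). Edn1, the gene of the vasoconstrictor endothelin, rose from 1.35 to 151 FPKM and Csf1, the macrophage growth factor, from 2.58 to 84.8 FPKM. Pdgfb fell from 27.1 to 8.80 FPKM and Vegfa from 17.1 to 7.74 FPKM, and Csf1r did not move by 2-fold.

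Chemokines rose from moderate levels to some of the highest in the library. Among CC chemokines 9 of 12 rose and 0 fell (8 and 0 after rescaling), with a median of 3.39, and their summed level went from 650.5 to 22861 FPKM. Ccl4 and Ccl3, which draw monocytes and T cells, rose from 97.6 to 7234 FPKM and from 131 to 7000.1 FPKM. Ccl5 rose from 167 to 6314 FPKM and the monocyte attractants Ccl2 and Ccl7 from 49.8 to 894 FPKM and from 13.5 to 468 FPKM. Cxcl10, which draws T cells through CXCR3, rose from 267 to 12295 FPKM and was the fifth most abundant mRNA with LPS, and Cxcl9, a ligand of the same receptor, rose from 0.891 to 166 FPKM. The neutrophil attractants Cxcl1 and Cxcl2 rose from 2.99 to 73.3 FPKM and from 24.5 to 625 FPKM. In the CXC list 5 of 10 rose and 1 fell (5 and 1 after rescaling). Cxcl14 fell from 25.6 to 6.26 FPKM, and Cxcl16 and Pf4 stood at 189.7 to 243 FPKM and 79.5 to 105 FPKM.

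Several receptors for chemoattractants fell. Cxcr4, the receptor for CXCL12 that retains cells in the bone marrow, fell from 72.7 to 2.46 FPKM, the second largest decrease with the pseudocount of 1 FPKM, at a log2 ratio of -4.41; without the pseudocount it was -4.88, with an interval of -5.25 to -4.52. Cx3cr1, the fractalkine receptor, fell from 45.04 to 5.15 FPKM, S1pr1, a sphingosine 1-phosphate receptor, from 16.5 to 1.47 FPKM, and Gpr183, which senses oxysterols, from 11.49 to 0.527 FPKM. Ch25h, the enzyme that makes the precursor of the ligand of Gpr183, rose from 8.62 to 935 FPKM. Receptors for formyl peptides rose, Fpr1 from 72.1 to 418 FPKM and Fpr2 from 117 to 429 FPKM. Regulators of G-protein signalling parted, with Rgs1 rising from 19.1 to 274 FPKM and Rgs2 at 50.4 to 34.1 FPKM. In the list of chemoattractant receptors and RGS proteins 9 of 27 rose and 5 fell (7 and 9 after rescaling).

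**Figure D4:**
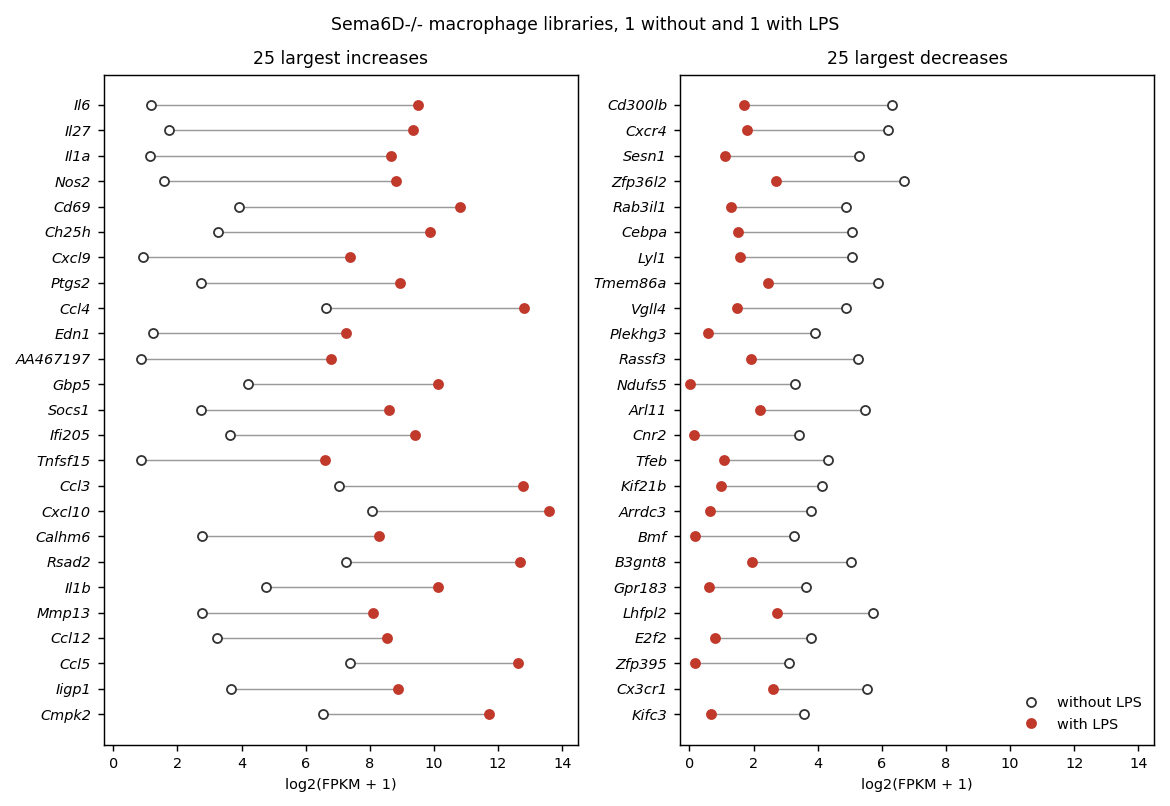
Levels without (open) and with LPS (filled), as log2(FPKM + 1), of the 25 genes with the largest increases (left) and the 25 with the largest decreases (right) among genes at 5 FPKM or more in either Sema6D-/- library. Il6 goes from 1.28 to 732 FPKM and Cxcl10 from 267 to 12295 FPKM, while Cd300lb on the right goes from 79.6 to 2.27 FPKM.

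Antiviral interferon-stimulated genes held the most members past 2-fold of the 58 lists. Ifnb1, the gene of interferon beta, rose from 0.394 to 37.3 FPKM, the lower value resting on 5 fragments. Among the type I interferons, their receptors and JAK kinases 4 of 10 rose and 0 fell (3 and 0 after rescaling). Among antiviral genes 50 of 56 rose and 0 fell (37 and 0 after rescaling), with a median of 2.28. Their summed level went from 7605 to 41638 FPKM. Rsad2, the gene of viperin, rose from 151 to 6564 FPKM and its chromosomal neighbour Cmpk2 from 91.4 to 3339 FPKM. The RNA sensor Ifih1 rose from 24.7 to 526 FPKM, Ddx58, the gene of RIG-I, from 57.2 to 311 FPKM, and the ubiquitin-like modifier Isg15 from 204 to 1700.2 FPKM. Ifit1, which binds viral RNA caps, rose from 155 to 3128 FPKM. Antiviral genes that were already high without LPS could stay within 2-fold, with Ifitm3 at 1407 to 2655 FPKM, Bst2, the gene of tetherin, at 561 to 1017 FPKM and Ifi27l2a at 633 to 908 FPKM. Members of the Ifit, Slfn, Oas and Trim families resemble each other in sequence, so the share of fragments given to each is uncertain.

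Guanylate-binding proteins and immunity-related GTPases, which attack the vacuoles of intracellular microbes, had the highest median of the 58 lists as deposited, at 3.61. Of 14 such genes 12 rose and 0 fell (12 and 0 after rescaling). The top place depended on the setting. CC chemokines stood above this list on the rescaled values, at 3.39 against 3.15. They did so too among genes with 1 transcript, at 4.14 against 3.22, and with a filter of 5 FPKM. On centring, with the smaller pseudocounts and with no filter the GTPase list stayed highest. Gbp5 rose from 17.3 to 1109 FPKM, Gbp2 from 88.9 to 1244 FPKM, Iigp1 from 11.7 to 473 FPKM and Irgm1 from 102 to 698 FPKM. Among the PYHIN genes, a family of DNA sensors, 11 of 11 rose and 0 fell (10 and 0 after rescaling), Ifi205 most, from 11.52 to 683 FPKM. Near-identical copies make the levels of single Gbp and Ifi200 genes uncertain too.

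In antigen presentation, among class I and peptide-loading genes 13 of 20 rose and 0 fell (5 and 0 after rescaling), including the peptide transporters Tap1, from 54.04 to 329 FPKM, and Tap2, from 38.8 to 149 FPKM, and Nlrc5, the class I transactivator, from 9.63 to 80.7 FPKM. The classical class I genes H2-K1 and H2-D1 stood at 919 to 1608 FPKM and 1077 to 1673 FPKM. The class I genes of the H2-Q group share long stretches of sequence and are not described. Among proteasome genes 5 of 37 rose and 0 fell (0 and 0 after rescaling), and the 13.5% that rose was near the 13.8% of all measured genes. Those that rose were the 3 catalytic subunits of the immunoproteasome, Psmb8, Psmb9 and Psmb10, and its activators Psme1 and Psme2. Psmb9 rose from 70.1 to 234 FPKM and Psmb10 from 108 to 347 FPKM. On the class II side 2 of 12 rose and 0 fell (1 and 1 after rescaling), a share of 16.7% higher against 13.8% of all measured genes. The 2 were H2-Ab1, from 74.4 to 156 FPKM, and Marchf1, a ligase that removes class II from the surface, from 15.1 to 59.7 FPKM. Cd74, the invariant chain, was at 372 to 623 FPKM.

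Among surface molecules that talk to lymphocytes 13 of 24 rose and 3 fell (6 and 6 after rescaling). Cd69, an early activation antigen, rose from 14.04 to 1809 FPKM, a log2 ratio of 6.91. Cd274, the gene of the checkpoint ligand PD-L1, rose from 23.97 to 461 FPKM, Cd86, a ligand of CD28, from 15.4 to 70.6 FPKM, and Cd83 from 5.53 to 65.8 FPKM. Vsir, the gene of the checkpoint VISTA, fell from 69.6 to 21.8 FPKM and Havcr2, the gene of TIM-3, from 12.7 to 4.53 FPKM. Among C-type lectins 3 of 16 rose and 1 fell (3 and 1 after rescaling). Clec4e, the gene of the mycobacterial cord-factor receptor Mincle, rose from 318 to 2002 FPKM, and Clec7a, the gene of Dectin-1, stood at 22.9 to 26.2 FPKM. Among the receptors that take up modified lipoprotein or dying cells 4 of 20 rose and 1 fell (0 and 4 after rescaling). Msr1 rose from 151 to 390.4 FPKM and Mertk from 23.5 to 61.3 FPKM, while Itgb5 fell from 46.1 to 15.9 FPKM and Cd36 was at 22.1 to 27.6 FPKM. With the pseudocount of 1 FPKM the largest decrease was in Cd300lb, an activating receptor of the CD300 family, from 79.6 to 2.27 FPKM, a log2 ratio of -4.62; without the pseudocount it was -5.13, with an interval of -5.43 to -4.85. With a pseudocount of 0.1 FPKM the ratio of Cd300lb was -5.07 and that of Cnr2, a gene of lower level, was -5.63. Its relative Cd300a, which is inhibitory, fell from 40.6 to 13.1 FPKM, and in the paired-receptor list 6 of 29 rose and 3 fell (1 and 9 after rescaling). Among Fc receptors 3 of 7 rose and 0 fell (2 and 0 after rescaling), among integrins and adhesion genes 7 of 26 rose and 2 fell (4 and 3 after rescaling), and among purinergic and metabolite receptors 6 of 20 rose and 2 fell (6 and 7 after rescaling). Of the adhesion genes Icam1 rose from 83.3 to 765 FPKM and Vcam1 from 0.558 to 14.4 FPKM.

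Several enzymes that make microbicidal and signalling metabolites rose. Nos2, the inducible nitric oxide synthase, rose from 1.98 to 449 FPKM, and Slc7a2, which imports its substrate arginine, from 1.90 to 90.97 FPKM. Gch1, which starts the synthesis of the cofactor tetrahydrobiopterin, rose from 15.8 to 118 FPKM. Acod1, which makes itaconate, rose from 357 to 5883 FPKM. In this list 10 of 22 rose and 2 fell (6 and 3 after rescaling). Amd1, a polyamine enzyme with a near-identical copy, was listed from 4.35 to 0.0170 FPKM and is uncertain. In prostaglandin synthesis the 2 inducible steps rose, Ptgs2, the gene of COX-2, from 5.67 to 495 FPKM and Ptges from 7.72 to 35.9 FPKM, as did the phospholipase Pla2g4a from 14.6 to 40.9 FPKM. Ptgs1 stood at 2.16 to 0.880 FPKM, and Hpgd, which degrades prostaglandins, fell from 10.2 to 3.25 FPKM. In the prostaglandin and leukotriene list 4 of 21 rose and 1 fell (3 and 9 after rescaling). The log2 ratio of Ptgs2 without the pseudocount was 6.45, with an interval of 6.33 to 6.58.

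Among matrix proteases, their inhibitors and matrix glycoproteins 10 of 25 rose and 1 fell (7 and 4 after rescaling). Mmp13, a collagenase, rose from 5.88 to 271 FPKM, Mmp14 from 122 to 358 FPKM, and Timp1, an inhibitor of such enzymes, from 0.956 to 23.6 FPKM. The proteoglycans Sdc4 and Vcan rose from 79.6 to 1603 FPKM and from 5.69 to 57.3 FPKM. Among coagulation and plasminogen genes 10 of 18 rose and 0 fell (9 and 2 after rescaling), with a median of 1.71. F3, the gene of tissue factor, rose from 0.240 to 9.16 FPKM, F10 from 21.4 to 114 FPKM, and Serpinb2, which blocks plasminogen activation, from 0.599 to 35.1 FPKM. Among complement genes and pentraxins 5 of 14 rose and 0 fell (2 and 0 after rescaling). C3 rose from 299.8 to 741 FPKM and Cfb from 108 to 587 FPKM, while C1qb was at 877 to 1164 FPKM. Ptx3, a soluble pattern receptor, was listed at 0 without LPS and at 11.8 FPKM with it. In the list of granule and antimicrobial genes 6 of 26 rose and 0 fell (1 and 0 after rescaling), and among markers of alternative activation 2 of 15 rose and 1 fell (2 and 1 after rescaling). The shares of the last list, 13.3% and 6.67%, were near the 13.8% and 8.43% of all measured genes.

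Energy metabolism differed by list. Among glycolysis and hypoxia genes 8 of 39 rose and 5 fell (3 and 9 after rescaling). Another 7 of the 46 listed stood below 1 FPKM in both libraries and were not counted. They included Gapdh, at 0.110 and 0.112 FPKM, and Eno1, at 0 and 0.479 FPKM, so the counts do not cover the whole pathway. Pfkfb3, which makes an activator of glycolysis, rose from 24.7 to 127 FPKM, Slc2a6, a hexose transporter, from 101 to 521 FPKM and Hif1a from 64.3 to 165 FPKM, while Pfkfb4 fell from 14.9 to 2.11 FPKM and Egln3, an oxygen sensor that marks HIF for destruction, from 8.80 to 1.51 FPKM. Among genes of the tricarboxylic acid and pentose phosphate routes 1 of 38 rose and 1 fell (0 and 4 after rescaling), and Idh1 was at 101 to 63.4 FPKM. Among respiratory chain and ATP synthase genes 0 of 65 rose and 1 fell (0 and 4 after rescaling), with a median of 0.22, or -0.52 on the rescaled values. That 1 was Ndufs5, from 8.81 to 0.00624 FPKM, a gene with near-identical copies, and its value is uncertain. Of the 70 respiratory chain and ATP synthase genes listed, 5 stood below 1 FPKM in both libraries, among them Cox7c at 0.546 and 0 FPKM. Among ribosomal protein genes 0 of 56 rose and 0 fell (0 and 0 after rescaling), with a median of 0.29, or -0.44 after rescaling. Of 78 such genes, 22 stood below 1 FPKM in both libraries, and near-identical copies in the genome make their values uncertain.

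Most lipid genes moved by less than 2-fold, and those past it went in both directions. Of all measured genes 13.8% rose and 8.43% fell. The same shares were 5.13% and 2.56% for sterol and LXR genes and 17.2% and 6.90% for lipid-uptake genes. For fatty acid genes they were 6.67% and 13.3%. Among sterol and LXR genes 2 of 39 rose and 1 fell (1 and 13 after rescaling), with Ch25h, given above, the largest change, and Abcg1, a cholesterol exporter, at 37.96 to 19.6 FPKM. Among lipid-uptake genes 5 of 29 rose and 2 fell (2 and 11 after rescaling). Acsl1 rose from 56.1 to 305 FPKM and Fabp3, a fatty acid carrier, from 5.01 to 25.5 FPKM, while Angptl4, an inhibitor of lipoprotein lipase, fell from 3.23 to 0.0354 FPKM. The desaturase gene Scd2 fell from 21.98 to 5.82 FPKM, in a fatty acid list where 2 of 30 rose and 4 fell (0 and 12 after rescaling). Among lysosomal genes 2 of 50 rose and 1 fell (1 and 5 after rescaling). The proton pump gene Atp6v0c stood at 0.235 and 0.381 FPKM in the Sema6D-/- libraries and was not counted. In the wild-type libraries it stood at 87.0 FPKM without and 102 FPKM with LPS, and this difference was not tested.

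Nutrient signalling genes fell more often than they rose. In the mTOR list 3 of 40 rose and 9 fell (1 and 16 after rescaling). Sesn1, a leucine-sensitive inhibitor of the mTOR complex, fell from 38.2 to 1.17 FPKM, a log2 ratio of -4.17, and Sesn2 fell from 10.3 to 3.73 FPKM, whereas Sesn3 rose from 0.935 to 7.72 FPKM. Flcn, which gates the Rag GTPases and TFEB, fell from 15.3 to 3.44 FPKM and Eif4ebp2, a translation repressor, from 41.8 to 12.95 FPKM. Among metabolic solute carriers 7 of 33 rose and 6 fell (4 and 12 after rescaling). Slc7a11, the cystine importer, rose from 5.95 to 57.2 FPKM and Slc43a2, an amino acid exporter, fell from 134 to 35.4 FPKM. In the unfolded protein response list 4 of 34 rose and 3 fell (2 and 7 after rescaling). These shares, 11.8% and 8.82%, were near the 13.8% and 8.43% of all measured genes. Ppp1r15a, the gene of GADD34, rose from 8.25 to 82.7 FPKM, and the sensor kinase Eif2ak3, the gene of PERK, fell from 7.32 to 1.00 FPKM. Among antioxidant genes 8 of 31 rose and 2 fell (2 and 5 after rescaling). They were led by Mt2, a metallothionein, from 7.73 to 68.3 FPKM, and Sod2, the mitochondrial superoxide dismutase, from 153 to 509 FPKM, with Hmox1 at 583 to 617 FPKM. In iron handling 5 of 18 rose and 2 fell (4 and 4 after rescaling). Slc40a1, the iron exporter ferroportin, fell from 9.96 to 1.51 FPKM, and Lcn2, which withholds iron from bacteria, rose from 74.9 to 294 FPKM.

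Genes of cell survival and of cell death both moved. Bcl2a1b, a short-lived survival protein, rose from 16.4 to 305 FPKM, Cflar, the inhibitor of caspase-8, from 26.7 to 318 FPKM, and Birc3 from 39.4 to 165 FPKM, with the Bcl2a1 copies uncertain among themselves. Bmf, a death-promoting member of the same family, fell from 8.56 to 0.124 FPKM and Casp9 from 13.1 to 3.69 FPKM. Mlkl, which carries out necroptosis, rose from 21.5 to 117 FPKM. In the list of death and survival genes 13 of 33 rose and 2 fell (12 and 6 after rescaling). Cdkn1a, the gene of the cell-cycle inhibitor p21, rose from 190.3 to 1186 FPKM, in a list of growth arrest genes where 7 of 24 rose and 6 fell (2 and 11 after rescaling). Among cell cycle genes 3 of 55 rose and 11 fell (2 and 24 after rescaling), with a median of -0.25. E2f2 fell from 12.8 to 0.745 FPKM, Cdc20 from 14.1 to 4.75 FPKM and Ccnd2 rose from 2.76 to 85.9 FPKM, while Mki67, a marker of dividing cells, was at 23.5 to 36.01 FPKM. Among chromatin enzymes 5 of 44 rose and 8 fell (2 and 17 after rescaling). The class IIa deacetylases Hdac5 and Hdac7 fell from 38.4 to 7.09 FPKM and from 6.94 to 1.20 FPKM, and Dnmt1, the maintenance methyltransferase, from 25.3 to 9.30 FPKM, whereas Tet2 rose from 6.23 to 31.8 FPKM. Genes named Zfp with a number, most of them DNA-binding zinc finger factors, had a median of -0.42: 14 of 224 rose and 22 fell (5 and 99 of 242 after rescaling). The 9.82% that fell was near the 8.43% of all measured genes, and the 6.25% that rose was below the 13.8% of all. Among semaphorins and plexins 2 of 13 rose and 2 fell (0 and 5 after rescaling). Sema6b, of the same class 6 as Sema6d, fell from 6.30 to 0.783 FPKM, Sema4c rose from 3.65 to 13.1 FPKM, and the class A plexin Plxna1 stood at 57.1 to 40.1 FPKM.

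Some genes crossed the 1 FPKM line. Without LPS 296 genes were below it that were at or above it with LPS, of which 169 were past 2-fold and 59 reached 5 FPKM or more. They included Cxcl9, Tnfsf15, Ifnb1, Serpinb2, Timp1, Vcam1 and F3, given above, and AA467197, from 0.818 to 110.0 FPKM. Also among them were Cish, a STAT-induced inhibitor, from 0.524 to 14.6 FPKM, Inhba, the activin A subunit, from 0.101 to 5.44 FPKM, and Nr4a3, an orphan nuclear receptor, from 0.433 to 8.99 FPKM. In the other direction 630 genes ended below 1 FPKM, of which 232 were past 2-fold and 37 came from 5 FPKM or more. These included Cnr2, a cannabinoid receptor, from 9.67 to 0.0974 FPKM, Plekhg3, an exchange factor for small GTPases, from 14.2 to 0.506 FPKM, Arrdc3, an arrestin-like regulator of receptors, from 12.7 to 0.557 FPKM, and the kinesins Kif21b and Kifc3, from 16.5 to 0.977 FPKM and from 11.01 to 0.611 FPKM. Of the 25 largest decreases 13 belonged to none of the lists. Rab3il1, an exchange factor for Rab GTPases, fell from 28.4 to 1.45 FPKM, Lyl1, a blood-lineage transcription factor, from 32.9 to 1.96 FPKM, Vgll4, a cofactor of TEAD factors, from 28.3 to 1.82 FPKM, and Arl11, a small GTPase, from 43.5 to 3.57 FPKM. Tmem86a, a lysoplasmalogenase, fell from 58.2 to 4.47 FPKM.

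Many genes that rose lie side by side in the genome. In the RefSeq gene order of GRCm38, 24 runs of 4 or more consecutive measured protein-coding genes had every member higher by 2-fold or more, with 125 genes in all of 10084 placed. The longest was a run of 11 PYHIN genes on chromosome 1, from Aim2 to Ifi205, with a median of 3.08. Next came 8 genes around Irgm1 and Ifi47 and 7 Slfn genes, both on chromosome 11, and 6 genes of the Ifit cluster on chromosome 19, with a median of 3.94. On chromosome 17 Psmb9, Tap1, Psmb8, Tap2 and H2-Ab1 followed each other, and on chromosome 3 Gbp5, Gbp7, Gbp3 and Gbp2. In the PYHIN, Slfn, Ifit and Gbp runs the genes resemble each other, so the levels of single members are uncertain. Not all runs were families of copies: on chromosome 16 Cd47, Bbx, Cblb, Alcam, Nfkbiz and Nxpe3 were each higher, and on chromosome 5 Tbc1d1 and Klf3 lay beside Tlr1 and Tlr6. Genes that fell formed 17 runs of 3 or more, none longer than 4. At the edge of the 2-fold rule, 126 genes lay just inside on the higher side (a log2 ratio of 1.0 to 1.1) and 162 just outside (0.9 to 1.0), with 180 and 199 on the lower side. The runs were looked for after the responses had been seen, and no chance level was set for them.

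**Figure D5:**
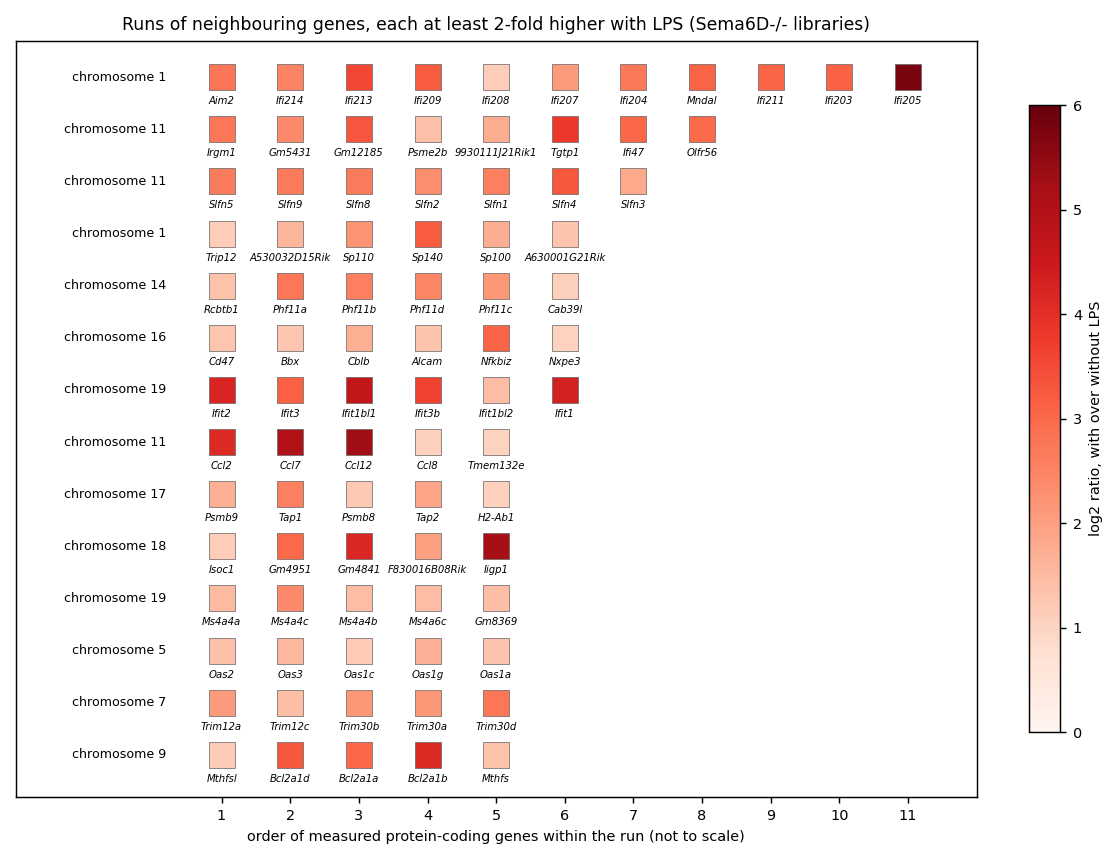
The 14 longest runs of neighbouring measured protein-coding genes that were each at least 2-fold higher with LPS in the Sema6D-/- libraries, in gene order and not to scale; colour gives the log2 ratio. The run of 11 on chromosome 1 ranges from 1.13 (Ifi208) to 5.77 (Ifi205).

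Beside the wild-type pair, the Sema6D-/- pair had more genes past 2-fold on the deposited scale. Wild-type libraries had 10.4% of 10036 measured genes higher and 4.42% lower. Among the 9830 genes measured in both pairs, 1347 rose in the Sema6D-/- pair and 1034 in the wild-type pair, and 960 rose in both, which is 71.3% of the first set and 92.8% of the second. For genes that fell the numbers were 831, 435 and 382, or 45.97% and 87.8%, and no gene was past 2-fold in opposite directions. Total FPKM also rose less in the wild-type pair, from 369407 to 533551, and its part in these counts was not tested. Some genes had larger ratios in the Sema6D-/- pair: Ptgs2 had a ratio of 6.22 against 3.89 in wild type, Il1a 7.52 against 5.21, Cxcl1 4.22 against 2.28 and Nlrc4 2.13 against -0.13. The order was the reverse for Cxcl10 at 5.52 against 7.73, Ifit1 at 4.33 against 5.35 and Gbp5 at 5.92 against 6.98. Without LPS, Cxcl10 stood at 267 FPKM in the Sema6D-/- library and 30.5 FPKM in the wild-type library. Among genes that fell, Cx3cr1 had -2.91 against -0.82, and its level without LPS was 45.04 against 5.07 FPKM, while Cd300lb had -4.62 against -2.49 and Cxcr4 -4.41 against -2.55. These differences between genotypes were not tested, since each group is 1 library. The 2 pairs also differed in sex-linked genes: Xist stood at 22.3 and 21.4 FPKM in the wild-type and 0.0333 and 0.0306 FPKM in the Sema6D-/- libraries, and the Y-linked Eif2s3y at 0.0207 and 0 against 33.5 and 50.4 FPKM, so genotype and sex cannot be told apart here.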

How the data were processed

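Stranded mRNA libraries of 4 samples were sequenced, 1 per group, per the labels' protocols. The deposited values are FPKM per RefSeq transcript, 1 file per library; per the submitters' processing notes the build was mm9 and the tools were Cuffnorm 2.2.1, Bowtie2 2.2.3, TopHat2 2.0.13 and SAMtools 0.1.19, and how libraries were scaled to each other is not given in the sources used here. Of 34487 transcripts, 34163 were named by a RefSeq table of GRCm38 and 187 by GENCODE, and 137 unnamed ones were left out. FPKM was summed per symbol to 24235 genes, 5540 with several transcripts. The ratio was log2 with a pseudocount of 1 FPKM, genes needed 1 FPKM in either library, and the size rule was 2-fold.

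Fragments were estimated from the steps between low FPKM values, assuming fragments of 200 bases on average. Of those values, 71.6% to 73.4% were whole within a tolerance of 0.1, so fragment counts are approximate. No count model was run, as each group has 1 library. Intervals are 95% Clopper-Pearson intervals of the estimated fragments.

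Named genes are the 25 highest and 25 lowest ratios among genes that reached 5 FPKM in either library, the 15 highest FPKM in each library, and members of 58 functional and 9 cell marker lists with a large ratio, a high level or a role described. Members, lists and rules were chosen with earlier results of these data known. Genes given for crossing 1 FPKM and the runs of neighbours were chosen after their values were seen. RefSeq promoters (GRCm38.p6) were matched by symbol at the first listed start, for 81.8% of measured genes, and 1684 genes have several starts. A second kappa-B spelling that had been planned was not run. The ratio script was tested on simulated data. Python 3.11.15, pandas 2.3.3, numpy 2.4.6, SciPy 1.17.1 and matplotlib 3.10.9 were used. Some genes are not reported here.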

Additional observations from a re-analysis of the deposited data

How the results depend on the processing

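Against 1388 genes higher and 850 lower, rescaling to a common total gave 705 and 2965, genes with 1 transcript gave 910 and 563, a size rule of 4-fold gave 506 and 128, and a pseudocount of 0.1 FPKM gave 1351 lower. The smaller counts at 4-fold and with 1 transcript come from a stricter rule and fewer genes. Rescaling shifted the ratios of named genes by a median of -0.71, and a smaller pseudocount enlarges the ratios of genes at low levels. Why the totals of the 2 libraries differ was not tested. Of the genes followed, 573 were past 2-fold. In the same direction, 533 stayed past it on centring and 421 of 571 with a value on rescaling. All 573 stayed with pseudocounts of 0.1 and 0.5, which was fixed in advance, since a smaller pseudocount enlarges a ratio. None reversed, but the median shifts of -0.71 on rescaling and -0.15 on centring were too small to reverse a gene past 2-fold. Of 13 lists with a median past 2-fold upward, 8 stayed past it on rescaling, 9 on centring and 8 with no filter on level, where members below 1 FPKM entered the medians (CC chemokines went from 3.39 to 0.47). No paired analysis was possible because each group has 1 library, and for the same reason no replicate could be left out. Depth limits the lowest genes most, since 62 genes that rose and 46 that fell had under 10 estimated fragments in their lower library.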
